A study of Caenorhabditis elegans with 3 samples.

Results

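The 10 genes described here encode subunits of the Caenorhabditis elegans kinetochore, of the centromere beneath it, of the spindle checkpoint and of the chromosomal passenger complex. They are air-2, bir-1, icp-1, csc-1, hcp-3, hcp-4, knl-1, knl-3, ndc-80 and bub-1, and rows of the array table were taken as theirs where the platform's gene symbol, or the current name of that gene in RefSeq, was on this list. Of the 10, 8 had a row, among 14795 named genes and 19731 features tested in all. No row was named for bir-1 (T27F2.3, chromosome V) or icp-1 (Y39G10AR.13, chromosome I), so they were not analysed here. RNA of fem-1(lf) animals, whose loss-of-function mutation makes XX animals produce oocytes but no sperm, was hybridised together with RNA of fem-3(gf) animals, whose gain-of-function mutation makes XX animals produce sperm but no oocytes. The study had 3 such 2-colour arrays, each with 1 RNA prep of either genotype, numbered prep 1 to prep 3. The labels give neither alleles nor age, temperature or dissection, and whether each prep was its own culture is not stated. The p-values therefore reflect no more than the variation between these arrays, which may be technical.

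A kinetochore is the protein platform by which a chromosome holds on to spindle microtubules. In C. elegans it forms along the whole length of each mitotic chromosome, on chromatin that carries the centromeric histone HCP-3. The passenger complex, built on the Aurora B kinase AIR-2, corrects faulty attachments, marks the sites where cohesin is removed in the meiotic divisions and acts again in the central spindle at cytokinesis. Both genotypes hold germ cells that divide by mitosis and enter meiosis, and mature oocytes also store RNA for the divisions of the embryo. How far meiosis ran in either genotype was not measured here.

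Each value below is a log2 ratio of the 2 channels of an array, so 0 is an equal signal and 1 is a 2-fold difference. A positive value is read as a higher level in fem-1(lf), which is likely rather than stated: the labels name fem-1(lf) first and place it in the second channel, but name no dye. The markers of the 2 germ cell types went with this reading, since all 12 oocyte markers were higher in fem-1(lf), with means between 2.097 and 3.49, and all 13 sperm markers were higher in fem-3(gf), with means between -6.91 and -1.63. These markers were listed with earlier results of these data known. The genotypes were named in the same order on all 3 arrays, and no dye swap is stated. A dye effect on a gene that repeats on each array thus cannot be told apart from a genotype difference. Means are given ± SD over n = 3 arrays, and each adjusted p is from limma, a moderated test on all features, after Benjamini-Hochberg adjustment with a threshold of 0.05. In RNA taken from many cells together, more cells of a type and more RNA per cell cannot be told apart.

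Of the 8 measured genes, 3 were higher in fem-1(lf), 0 were higher in fem-3(gf) and 5 did not pass. Over all features, 21% passed on the fem-1(lf) side, while 23.7% passed on the opposite one. The 3 that rose were hcp-3, ndc-80 and knl-1. At an unadjusted p under 0.05, 4 of the 8 were higher in fem-1(lf), beside 24% of all features, and 0 were lower there, beside 30%. Counted over both directions, the share of the 8 genes was not above the one over all features. The median of the 8 means was 0.36, against -0.10 for all features, and every one of the 8 lay above that median. All 3 arrays gave a ratio above 0 for 5 of the genes (csc-1, hcp-3, knl-1, knl-3 and ndc-80), and 29.5% of all features had this property.

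**Figure D1:**
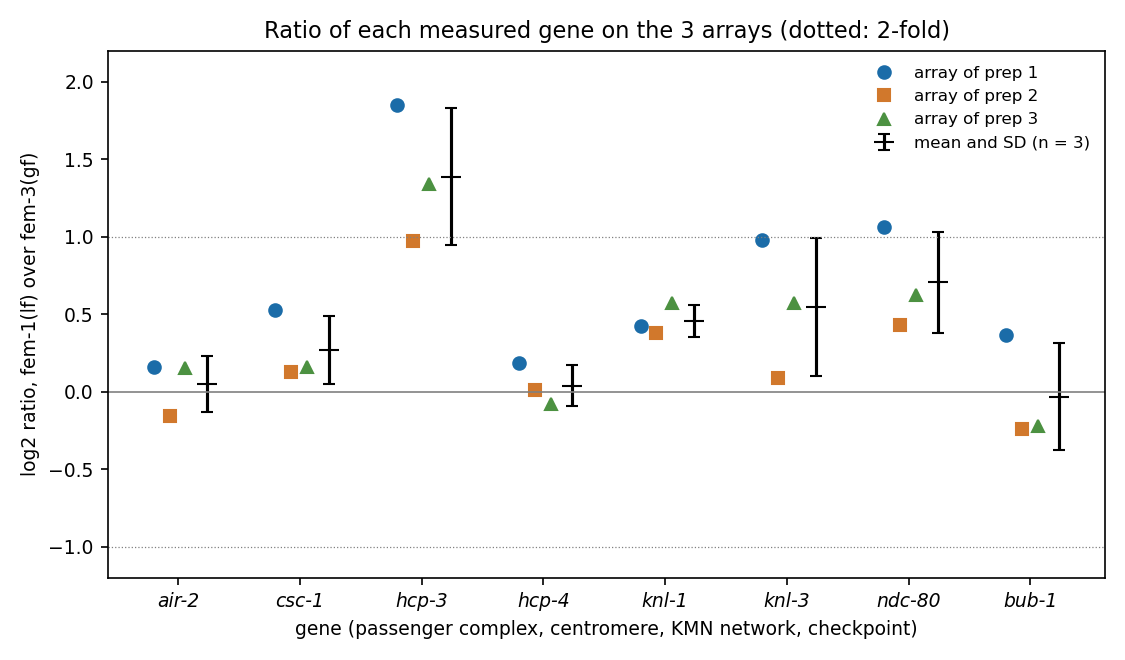
Log2 ratios, likely fem-1(lf) over fem-3(gf), of the 8 measured genes on the arrays of preps 1, 2 and 3 (coloured symbols), with the mean and SD of the 3 arrays in black. The ratio of hcp-3 lies between 0.97 and 1.85 and stands above the other genes on every array, while air-2, hcp-4 and bub-1 have values on both sides of 0.

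The centromeric histone gene had the largest ratio. HCP-3 (F58A4.3, chromosome III) is the CENP-A of C. elegans, the histone H3 variant that marks the chromatin on which the kinetochore is built. Its log2 ratios were 1.85, 0.97 and 1.34 on the arrays of preps 1, 2 and 3. Each array thus put hcp-3 higher in fem-1(lf), by 3.60-fold, 1.96-fold and 2.53-fold. The mean was 1.39 ± 0.44, a 2.62-fold higher level in fem-1(lf) with a 95% confidence interval of 1.89-fold to 3.62-fold (limma adjusted p = 0.0026). It was the only one of the 8 with a mean of at least 2-fold, a size that 8.43% of all features reached with a call in this direction, and 96.2% of all features lay below it. The call held without each array in turn, with means between 1.16 and 1.59.

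HCP-4 (T03F1.9, chromosome I) is the CENP-C that links HCP-3 chromatin to the outer kinetochore, and its gene did not pass. It had a pair of rows on the array, and their averages were 0.19, 0.01 and -0.08 on the arrays of preps 1, 2 and 3. The first row gave 0.10, 0.27 and -0.10, and the second gave 0.27, -0.24 and -0.06, so neither row kept 1 sign. The mean was 0.04 ± 0.13 (limma adjusted p = 0.81), and the 95% confidence interval of the log2 ratio ran between -0.26 and 0.34. Within the arrays, hcp-3 exceeded hcp-4 by 1.66, 0.96 and 1.42 on the log2 scale. That difference averaged 1.35 ± 0.36 and was positive on 3 of 3 arrays, and the exact two-sided sign-flip test gave p = 0.25, the smallest that 3 arrays allow. For the 6 gene pairs set against each other in this way, all picked with their values known, the lowest adjusted p was 0.38.

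The remaining genes of centromere chromatin rose as well. The paralog cpar-1, which encodes a second CENP-A-type histone, was at 1.56, 0.88 and 1.04, with a mean of 1.16 ± 0.36 (limma adjusted p = 0.0032). It was below hcp-3 on each array, by 0.29, 0.09 and 0.30 on the log2 scale. CPAR-1 and HCP-3 are similar proteins. Whether either spot also binds the RNA of the other gene was not tested. The chaperone gene lin-53, whose product binds histone H4 and serves in several chromatin complexes, had the largest ratio of the list at 1.88 ± 0.60 (adjusted p = 0.0019). Knl-2, which encodes a factor of CENP-A loading, was at 0.95 ± 0.41 and was named after its value was seen. With it, 4 of the 5 measured genes of this list rose, beside 21% of all features, and hcp-4 did not pass.

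The core of the outer kinetochore is the network of KNL-1, the MIS12 complex and the NDC80 complex, which together bind microtubules. NDC-80 (W01B6.9, chromosome IV) makes the main contact with the microtubule. Its gene had log2 ratios of 1.06, 0.43 and 0.62, all above 0 and highest on the array of prep 1. The mean was 0.71 ± 0.32, a 1.63-fold higher level in fem-1(lf) with a 95% confidence interval of 1.24-fold to 2.14-fold (limma adjusted p = 0.016). Without the array of prep 3 the mean was 0.75 and the gene did not pass (adjusted p = 0.055).

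KNL-1 (C02F5.1, chromosome III) is the scaffold of the network and the docking site of the checkpoint proteins. The ratios of knl-1 were 0.43, 0.38 and 0.58, the narrowest spread of the 8 genes, and none came near 2-fold. Their mean was 0.46 ± 0.10, a 1.38-fold higher level in fem-1(lf) with a 95% confidence interval of 1.12-fold to 1.68-fold (limma adjusted p = 0.025). It did not pass without the array of prep 2 (0.50, adjusted p = 0.078) or prep 3 (0.40, adjusted p = 0.17).

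KNL-3 (T10B5.6, chromosome V), a subunit of the MIS12 complex, joins the network to the centromere. The ratios of knl-3 were 0.98, 0.09 and 0.58, the widest spread of the 8 genes, so the array of prep 1 gave nearly 2-fold and that of prep 2 almost no difference. The mean of 0.55 ± 0.44 was larger than that of knl-1, but it did not pass (limma adjusted p = 0.061). It passed without the array of prep 2, at 0.78 (adjusted p = 0.032), and with the array medians set to 0, at 0.64 (adjusted p = 0.043).

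Of the 7 measured genes of the network, 6 were higher in fem-1(lf), beside 21% of all features, and knl-3 did not pass. The median of the 7 was 0.58, against -0.10 for all features. The largest were kbp-5 at 1.32 ± 0.30 and kbp-1 at 1.19 ± 0.09 (limma adjusted p = 0.0014 and 0.00076), which encode subunits that bind within the network. The partner of ndc-80 in its complex, him-10 (NUF2), which was named after its value was seen, was at 0.58 ± 0.10, and did not pass without the array of prep 2 (0.54, adjusted p = 0.064). The difference of ndc-80 from him-10 was 0.45, -0.24 and 0.16 on the 3 arrays and thus had no constant sign. Without the array of prep 2, 4 of the 7 genes passed, knl-3 among them, and without that of prep 3 also 4 of the 7.

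BUB-1 (R06C7.8, chromosome I) is a kinase of the spindle checkpoint, which delays anaphase until attachments are made, and it also recruits other proteins to the outer kinetochore. The ratios of bub-1 were 0.37, -0.24 and -0.22, so the array of prep 1 put it on the fem-1(lf) side and the other two on the fem-3(gf) side. The mean was -0.03 ± 0.34 (limma adjusted p = 0.89), with a 95% confidence interval of -0.43 to 0.37. Centring the arrays on their medians turned the mean to 0.064.

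The other checkpoint genes measured were higher in fem-1(lf), and the list had a median of 0.77. Of its 5 measured genes, 4 passed, beside 21% of all features on that side, and bub-1 was the fifth. Of these 4, the CDC20 gene fzy-1, was named after its value was seen and did not pass without the array of prep 2 (0.37, adjusted p = 0.16) or prep 3 (0.53, adjusted p = 0.13). SAN-1, the MAD3 of C. elegans, had the largest ratio at 1.15 ± 0.31, and mdf-1, which encodes MAD1, was at 0.81 ± 0.30 (limma adjusted p = 0.0024 and 0.0087). The gene of the binding partner of BUB-1, bub-3, was at 0.77 ± 0.26 (adjusted p = 0.0079), and it was named after its value was seen. Bub-1 was below bub-3 by 0.70, 0.88 and 0.83 on the log2 scale on the arrays of preps 1, 2 and 3, a difference of -0.80 ± 0.09 with 1 sign on all arrays (exact p = 0.25, the smallest possible).

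Neither measured gene of the passenger complex passed. AIR-2 (B0207.4, chromosome I), its Aurora B kinase, had log2 ratios of 0.16, -0.16 and 0.16, which lie on both sides of 0. The mean of air-2 was 0.05 ± 0.18 (limma adjusted p = 0.76), with a 95% confidence interval of -0.26 to 0.37, or 0.83-fold to 1.29-fold. CSC-1 (Y48E1B.12, chromosome II) is the subunit that works with BIR-1 and ICP-1 to place the kinase on chromosomes. The ratios of csc-1 were 0.53, 0.13 and 0.16, all above 0 with the array of prep 1 apart from the others, and the mean was 0.27 ± 0.22 (adjusted p = 0.16, 95% confidence interval -0.07 to 0.61).

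Paralogs and regulators of the complex were spread over both sides. The Aurora A gene air-1, whose product works at centrosomes, was at -0.07 ± 0.15 (limma adjusted p = 0.65), and the difference of air-2 from air-1 was 0.36, -0.24 and 0.26 on the arrays. The paralog of bir-1, bir-2, rose, at 1.03 ± 0.06 (adjusted p = 0.0012). It is no measure of bir-1 itself. Over all features, 21% rose and 23.7% were higher in fem-3(gf). Of 8 genes on this list, 3 rose, 3 were higher in fem-3(gf) and 2 did not pass. The protein phosphatase 1 genes among them were divided. Gsp-1, named after its value was seen, did not pass, at -0.15 ± 0.14 (limma adjusted p = 0.35). Gsp-2, whose product limits AIR-2 on meiotic chromosomes, rose, at 1.16 ± 0.29, whereas the sperm phosphatases gsp-3 and gsp-4 were at -5.76 ± 0.53 and -5.39 ± 0.35. LAB-1, which holds GSP-2 on those chromosomes, had a gene on the fem-3(gf) side as well, at -0.96 ± 0.30 (adjusted p = 0.0048), and was named after its value was seen. Gsp-3 and gsp-4 were also among the sperm markers used above to read the direction, so their side is not independent of that check.

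**Figure D2:**
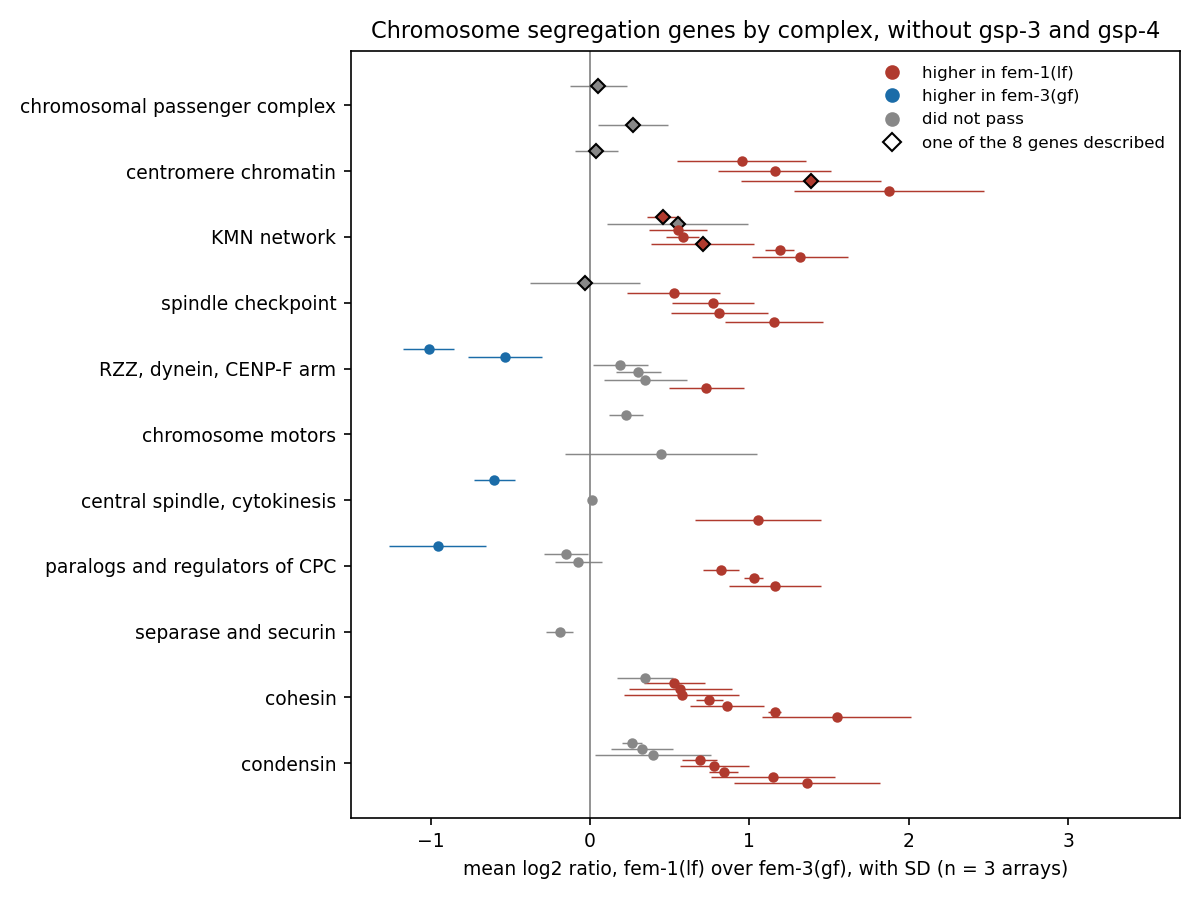
Mean log2 ratio, likely fem-1(lf) over fem-3(gf), with the SD over 3 arrays for the measured genes of each list (CPC, chromosomal passenger complex; KMN, the KNL-1, MIS12 and NDC80 network), coloured by the limma call. Diamonds are the 8 genes described, and gsp-3 and gsp-4, at -5.76 and -5.39, are left out; the centromere, KMN and checkpoint lists lie mostly right of 0, with hcp-4 and bub-1 at 0.04 and -0.03.

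Beyond the 8 genes, 47 other genes of chromosome segregation on the lists were measured, of 59 listed. Of the 47, 28 rose, 6 were higher in fem-3(gf) and 13 did not pass, with a median of 0.58. The sperm markers gsp-3 and gsp-4 are among the 6. Over all features, 21% rose and 23.7% were higher in fem-3(gf), and the median was -0.10. With 1 array left out, 23 to 26 of the 47 rose and 5 were higher in fem-3(gf). In the part of the list nearest to the 8 genes, 17 other genes of the centromere, the outer kinetochore and the checkpoint, 12 rose, 2 were higher in fem-3(gf) and 3 did not pass. Without the array of prep 2, 9 of the 17 rose and 1 was higher in fem-3(gf). Without that of prep 3, these counts were 10 and 2. The 2 higher in fem-3(gf) belong to the outermost layer of the kinetochore, which also takes in the RZZ complex and dynein: hcp-2, a CENP-F-like gene, was at -1.01 ± 0.16 and spdl-1, which encodes the dynein adaptor Spindly, at -0.53 ± 0.23 (limma adjusted p = 0.0018 and 0.026). Spdl-1 did not pass without the array of prep 1 (-0.48) or prep 2 (-0.45), nor with the median of muscle, intestine, cuticle and neuron genes set to 0, a somatic zero (-0.15). The paralog of hcp-2, hcp-1, was at 0.30 ± 0.14 (adjusted p = 0.092) and exceeded it by 1.63, 1.27 and 1.05 on the 3 arrays. Hcp-1 passed as higher in fem-1(lf) with the somatic zero (0.68, adjusted p = 0.0082) and after median centring with scaling (0.40, adjusted p = 0.046). In the same layer, the RZZ subunit gene czw-1 rose, at 0.73 ± 0.24, and it did not pass without the array of prep 3 (0.67, adjusted p = 0.057).

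Genes of cohesin and condensin, the complexes that hold and fold the chromosomes on which the kinetochore works, lay on the fem-1(lf) side. Of 8 cohesin genes, 7 rose, beside 21% of all features, and 0 were higher in fem-3(gf), beside 23.7%. Their median was 0.66, although 4 calls were left without the array of prep 3. The cohesin release factor gene wapl-1 was at 1.55 ± 0.47 and him-1, which encodes SMC-1, at 1.16 ± 0.04. Of 8 condensin genes, 5 rose, again beside 21% of all features, with a median of 0.73. They were led by capg-2 at 1.36 ± 0.46 and dpy-27, a gene of the dosage compensation condensin, at 1.15 ± 0.39. All 8 rose with the somatic zero (median 1.11), beside 36.5% of all features. Among the central spindle genes, the kinesin gene zen-4 rose, at 1.06 ± 0.40, and cyk-4, named after its value was seen, was at 0.01 on average and did not pass. The exchange factor gene ect-2 was higher in fem-3(gf), at -0.60 ± 0.13, but not without the array of prep 3 (-0.58) or with that somatic zero (-0.22). On the list of chromosome motors, which leaves out zen-4, neither measured gene, klp-7 or klp-19, passed. Klp-19 did without the array of prep 3 (0.79), and both did with the somatic zero. The securin gene ify-1, the 1 measured gene of separase and securin, did not pass. Klp-7, klp-19 and ify-1 were named after their values were seen.

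**Figure D3:**
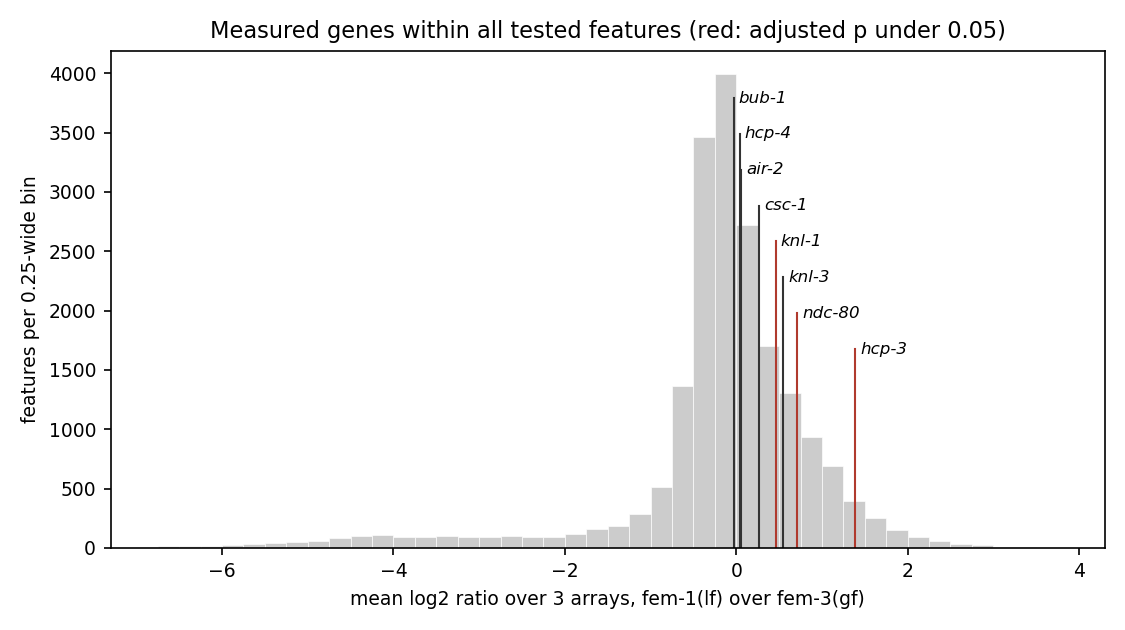
Number of features in each 0.25-wide bin of the mean log2 ratio, likely fem-1(lf) over fem-3(gf), for the 19731 features tested, with a vertical line at the mean of each of the 8 genes (red where the adjusted p was under 0.05; line height has no meaning). The 8 genes span -0.03 to 1.39, all to the right of the median of -0.10.

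The order of the 8 means, high to low, was hcp-3, ndc-80, knl-3, knl-1, csc-1, air-2, hcp-4 and bub-1. Hcp-3 exceeded ndc-80 by 0.79, 0.54 and 0.71 on the arrays of preps 1, 2 and 3. Of the 7 pairs of neighbours in this order, 4 changed places on at least 1 array. The other pairs with a constant order were ndc-80 over knl-3, by 0.05 at the least, and csc-1 over air-2, by 0.0013 at the least. The means of ndc-80, knl-3 and knl-1 spanned 0.25 and those of air-2, hcp-4 and bub-1 0.083. The first span was below the SD of ndc-80 and of knl-3 but not of knl-1, and the second was below the SD of each of its genes. Against all features, 4 of the 8 lay above the 75th percentile and bub-1, the lowest, at the 55.4th.

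The arrays differed in how far they placed these genes from 0. The array of prep 1 gave the highest ratio for 7 of the 8 genes, knl-1 being the exception, and the median of the 8 genes was 0.48, 0.11 and 0.37 on the arrays of preps 1, 2 and 3. All 8 were above 0 on the array of prep 1, against 6 on each of the others. Over all features, prep 1 was highest for 36%, and among the features called higher in fem-1(lf) for 65.1%. Values on the array of prep 1 were also more widely spread, with an SD over all rows of 1.35 against 1.15 and 1.22, and the part of this spread in the ratios of the 8 genes was not tested.

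**Figure D4:**
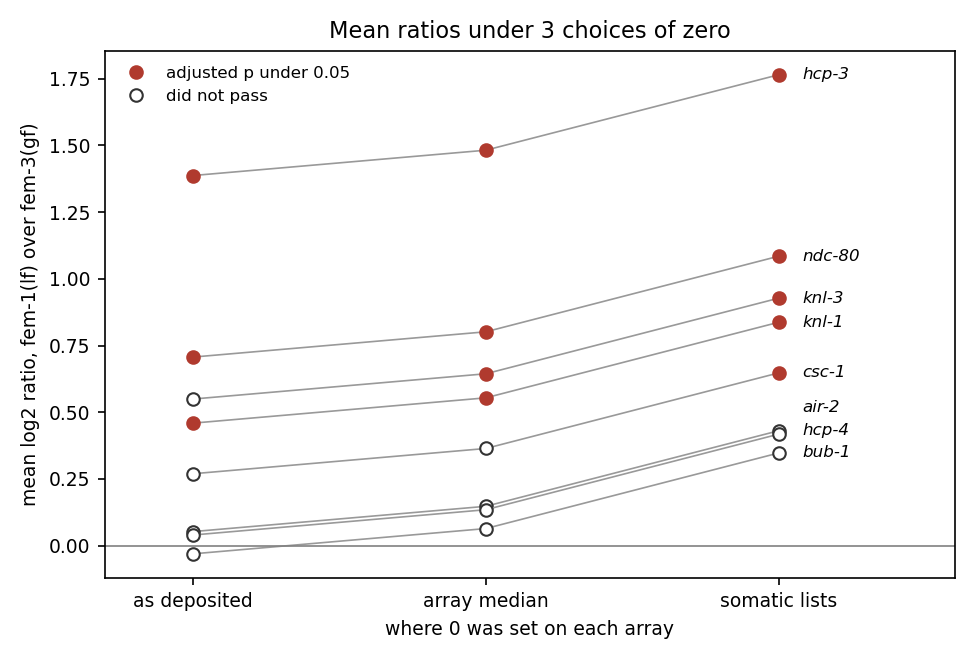
Mean log2 ratio, likely fem-1(lf) over fem-3(gf), of the 8 genes with the values as deposited, after centring each array on its own median, and after centring it on 88 muscle, intestine, cuticle and neuron genes. Filled points passed limma (3, 4 and 5 genes), and bub-1 crosses 0 between the first choice and the second.

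The number of calls depended on where 0 was set. The 88 measured muscle, intestine, cuticle and neuron genes, called somatic here, had a median of -0.38, with 4 of them called higher in fem-1(lf) against 36 that were higher in fem-3(gf). Setting their median to 0 on each array moved the median of all features up by 0.38, and then 5 of the 8 genes were called higher in fem-1(lf), csc-1 at 0.65 and knl-3 at 0.93 being added, against a background of 36.5%. Centring on the array median moved all features by 0.095 and added knl-3 alone, against a background of 23.8%. The share of all calls on the fem-1(lf) side was 76.3% with the somatic zero and 47% as deposited. Relative to the somatic genes air-2, hcp-4 and bub-1 were at 0.43, 0.42 and 0.35, and did not pass (limma adjusted p = 0.060, 0.073 and 0.18).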

How the data were processed

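Each deposited value is a log2 ratio between the channels of 1 array, named per the labels. The base was read from the values: raised as powers of 2, all but 4 of 64209 came out as whole thousandths (tolerance 0.01). How the authors scaled, centred or filtered the log2 ratios is not given in the sources used here. Spot intensities were not analysed here, so signal over background is unknown, and 3 arrays limit the precision.

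Rows were named by platform gene ID (16360), accession (8) or symbol (82), through RefSeq (WBcel235). Rows of a gene were averaged, and 19731 features on all 3 arrays were fitted in limma 3.58.1 (R 4.3.3, lmFit against 0, eBayes, two-sided). The fit was also run on simulated data with independent errors, which cannot test for shifts of a whole array or dye effects. Differences between genes were taken within arrays, with an exact sign-flip test.

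Members and lists were chosen with earlier results of these data known. Named were all members, the largest 2 called on each side of each list and paralogs; other names were chosen after their values were seen. A planned naming of genes next to members was not done, as strand was not used here. Alternatives were centring on array medians or somatic lists, scaling, features on 2 arrays, a robust variance model, leaving out each array, single rows, an adjusted p under 0.01, limma treat at 1.5-fold, and 2-fold on each array. Figures were drawn with matplotlib 3.10.9.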

Additional observations from a re-analysis of the deposited data

How the results depend on the processing

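Each ratio pairs the genotypes within 1 array, so the fit was paired throughout and no further block on the prep number could be added. Hcp-3 passed every alternative that had a test; with a value of 1.39 it missed only 2-fold on each array. Ndc-80 (0.71) and knl-1 (0.46) missed the threshold of 0.01, limma treat at 1.5-fold and 2-fold on each array. Knl-3 passed after median centring (0.64), scaling (0.63) and somatic centring (0.93), csc-1 after somatic centring (0.65). Bub-1 turned to 0.064, 0.053 and 0.35 under those 3 settings, and the second row of hcp-4 was at -0.011. Leaving out an array gave 1.16 to 1.59 for hcp-3, 0.53 to 0.84 for ndc-80, 0.40 to 0.50 for knl-1, 0.33 to 0.78 for knl-3, -0.23 to 0.073 for bub-1 and -0.033 to 0.099 for hcp-4. Air-2 did not pass under any alternative. Its means without an array ran between 0.00027 and 0.16, so the sign it kept rested on almost no difference.

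The count of the 8 genes higher in fem-1(lf) was 5 after somatic centring, 1 at 0.01, 1 with treat and 0 at 2-fold on each array, and 1 to 3 without an array (1 without prep 3). The counts of the other listed genes were 10 and 3 with treat and 5 and 2 at 2-fold, for the fem-1(lf) and fem-3(gf) sides. For all features these were 7199 and 2241 after somatic centring, 2699 and 2544 at 0.01, 1431 and 1814 with treat, and 1026 and 1660 at 2-fold. Without an array they were 2933 to 4032 and 2763 (without prep 3) to 4070. Why these values moved was not tested, beyond what the stricter thresholds and fewer arrays fix.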
